A study of Mus musculus with 45 samples.

Results

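A set of 115 protein-coding genes had a higher mean level in Pkd1KO kidney tubules than in noncystic and in Pkd1KO+ciliaKO tubules, in male and in female mice. They were chosen by measured values, the mean TPM (a gene's reads scaled by its length and by the library) of each genotype in the tables of each sex. A gene had to have a Pkd1KO mean of at least 2 TPM, and log2((Pkd1KO mean + 0.1)/(other mean + 0.1)) had to be at least 0.3, a ratio of 1.23, against both other genotypes and in both sexes. Of the 15828 genes with a TPM value in both sexes, 0.727% were chosen, and of the 11559 with a Pkd1KO mean of at least 2 TPM in both sexes, 0.995%. The limits were met by 460 genes in males and by 355 in females, so that the 115 shared genes made up 25% of the male and 32.4% of the female set. The same limits turned to lower means in Pkd1KO were met by 97 genes. Because the Pkd1KO means chose the genes, their levels in Pkd1KO against the other genotypes are given as a description. Counts of edgeR calls in those contrasts are printed for the same purpose and support nothing, and log2 differences with SE and p are given only for contrasts that leave Pkd1KO out. 

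The 45 mice were killed at 7 weeks, on postnatal day 49, after doxycycline from day 28 to day 42, and 1 mouse gave 1 library. Noncystic mice (labelled wild type) had the genotype Pkd1fl/+; RosaEGFP-Rpl10a; Pax8rtTA; TetOCre, with 8 males and 7 females. Pkd1KO mice (labelled SKO) carried Pkd1fl/fl with the same RosaEGFP-Rpl10a, Pax8rtTA and TetOCre, with 7 males and 8 females. Pkd1KO+ciliaKO mice (labelled DKO) carried Pkd1fl/fl and Kif3afl/fl with those transgenes, with 9 males and 6 females. Every group therefore received doxycycline, made Cre recombinase and carried at least 1 floxed Pkd1 allele. RNA bound to ribosomes was pulled down from whole kidney through EGFP-tagged L10a, a ribosomal protein that is made only in cells where Cre has acted, and Pax8rtTA limits Cre to epithelial cells of the nephron. A library thus draws on the tagged tubule cells of all segments together. Markers of macrophages, endothelial cells, fibroblasts and podocytes were read in every group as well, and the source of these reads was not tested. A change in the share of a cell type cannot be told apart from a change in RNA per cell.

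Polycystin-1, the product of Pkd1, is a large membrane protein that sits with polycystin-2 on the primary cilium of tubule cells, and its loss leads to cysts. Kif3a is a subunit of the kinesin motor that builds the cilium, and tubules that lose both polycystin-1 and the cilium form far milder cysts than tubules that lose polycystin-1 alone. The study compared the 3 genotypes to find genes that change after the loss of Pkd1 and move back after the added loss of Kif3a.

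Libraries held 80874556 to 132958186 gene-assigned counts. Kif3a levels of 4.33 to 6.68 TPM in Pkd1KO+ciliaKO males lay below all noncystic (11.5 to 23.2 TPM) and Pkd1KO (16.4 to 24.8 TPM) males. Pkd1 levels overlapped between genotypes in both sexes, and since the gene's value also counts reads outside the floxed exons, it does not check the deletion. Among females, 2 libraries went against their label for Kif3a. The library labelled noncystic female 5 had 6.21 TPM against 20.8 to 22.7 TPM in the other noncystic females, and the library labelled Pkd1KO+ciliaKO female 6 had 20.1 TPM against 6.10 to 9.02 TPM in the others of its group. Without these 2 libraries 113 genes met the rule, of which 102 were among the 115. Among Pkd1KO males, replicate 4 held the highest value of 65 of the 115 genes, and for 23 of them that value was at least 2 times the next. Its summed level of 10 macrophage markers was 974 TPM against 64.5 to 128 TPM in the other Pkd1KO males, with fibroblast and pericyte (515 against 112 to 215 TPM) and endothelial (349 against 54.1 to 108 TPM) markers also higher. Without this mouse 87 genes met the rule and 81 of the 115 were kept, and the 34 that were not are named with their groups below. Without the 2 female libraries, 8 of 12 mitosis genes, 8 of 10 S phase genes, 7 of 8 antigen presentation genes, 7 of 8 interferon and chemokine genes, 9 of 10 enzyme genes, 6 of 7 transport genes and 30 of 33 genes without an assigned role met the rule, and the remaining groups kept all their genes.

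The rule's limit passed through a dense part of the range. St6galnac2, Adamtsl4 and Cfi were the last genes inside it, each with a smallest log2 ratio of 0.30. Ckap2, Knstrn and Tubb6 lay just outside, with smallest ratios that also round to 0.30, and Ckap2 and Knstrn act in mitosis like many of the genes inside.

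Over all 115 genes, the median log2 ratio of Pkd1KO to noncystic was 0.89 in males and 0.58 in females, and that of Pkd1KO to Pkd1KO+ciliaKO was 0.62 in males and 0.60 in females. The ratio to noncystic was larger in males than in females for 85 genes. The male means include Pkd1KO male 4, the highest Pkd1KO male for 65 of the 115 genes, and no such count without it is given. In Pkd1KO of both sexes 45 genes lay under 10 TPM, and the highest was Odc1 with a Pkd1KO mean of 2333 TPM in males. The genes together summed to a median of 5139 TPM in noncystic, 8372 TPM in Pkd1KO and 5183 TPM in Pkd1KO+ciliaKO males, and to 3836, 5925 and 3746 TPM in females. In every Pkd1KO mouse the value lay above every mouse of both other genotypes for 6 genes in males (0.0505% of all genes did this) and for 14 in females (0.227% of all). For 5 genes, Chpf, Glis2, Slc25a21, Pcdh7 and Pkd2, this held in both sexes (0.0316% of all). The rule used these values, so nothing is read from the counts. The other male gene was Tor2a, and the other female genes were Pdpn, Ptgds, Cables2, Sema3c, Hsd17b11, Kcne1l, Aldh1a1, Tspan5 and St6galnac2.

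**Figure D1:**
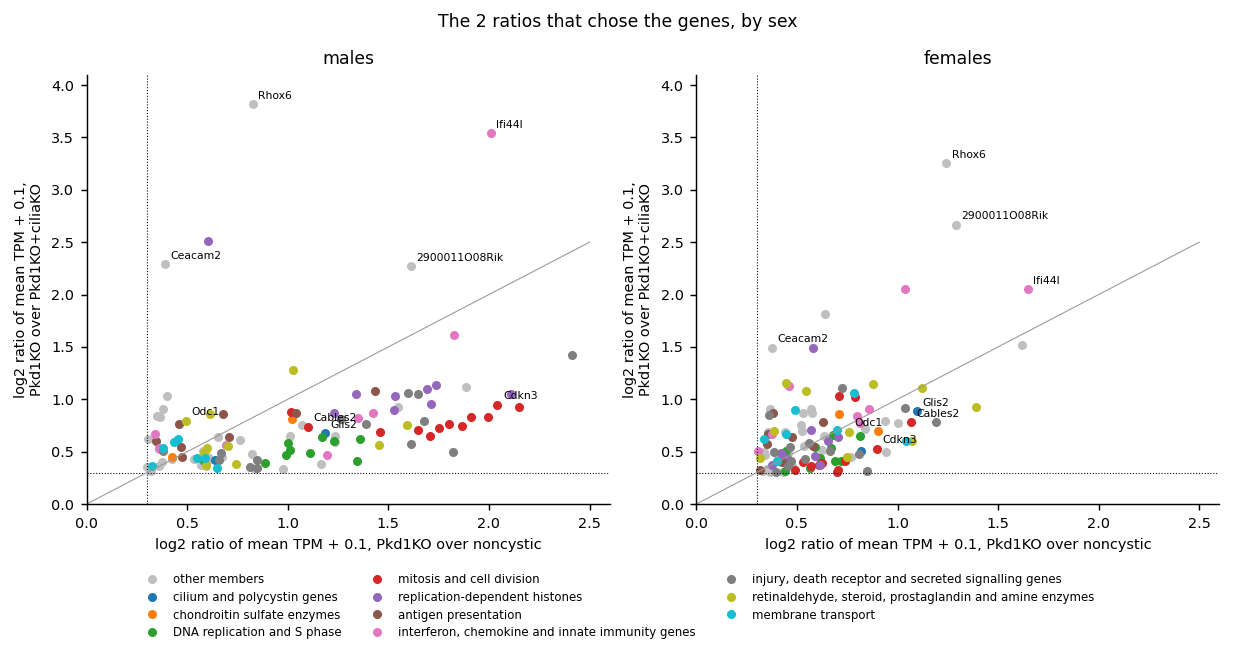
Log2 ratio of mean TPM + 0.1 in Pkd1KO over noncystic (x axis) and over Pkd1KO+ciliaKO (y axis), 1 point per gene for the 115 genes, 1 panel per sex, coloured by role group. Dotted lines mark the limit of 0.3 that chose the genes and the diagonal marks equal ratios. Male points reach further right than female points, with medians of 0.89 and 0.58 on the x axis.

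In edgeR's quasi-likelihood test, 81 of the 115 genes were called higher in Pkd1KO than in noncystic males (4.05% of all genes were) and 42 higher than in Pkd1KO+ciliaKO males (1.99% of all). In females 42 were called higher than in noncystic (2.02% of all) and 76 higher than in Pkd1KO+ciliaKO (7.05% of all). These counts describe the genes and are no support for them, since the rule used the same contrasts. Without Pkd1KO male 4 the male counts were 75 and 38, and without the 2 female libraries the female counts were 40 and 68. Against both other genotypes at once, 32 were called in males (0.569% of all genes were) and 39 in females (1.1% of all). In both sexes 40 of the 15828 genes measured in both were called, and 17 of these 40 were members. The 17 were Ccl5, Stc2, Ptgds, Cables2, Ect2, Chpf, Glis2, Sema3c, Hist1h1a, Ston1, Hsd17b11, Slc25a21, Pcdh7, Pkd2, Wnt9a, Tspan5 and Tor2a.

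Membership also varied in how far it hung on single mice. Leaving out each of the 45 mice in turn kept 47 genes every time, and 40 of these also met the rule when group medians replaced the means. Beside Glis2, Pkd2, Cables2 and Chpf, these 40 held the cell cycle genes Ube2c, Ect2, Cdkn3 and Ccnb2, the histone genes Hist1h3g, Hist1h3c, Hist1h1a, Hist1h2ab and Hist1h3b, and enzyme genes such as Ptgds, Akr1d1, Odc1 and Hsd17b11. They also held the transporters Slc6a18, Slc25a21 and Slc38a4, the immune genes Ccl5, Tgtp1, Gbp2, H2-Q7 and H2-T22, the secreted or injury-linked genes Stc2, Krt20, Sema3c and Anxa3, and the sulfotransferase Chst3. The remaining 9 had no assigned role: 2900011O08Rik, Rhox6, Smpdl3b, Zfp239, Pcdh7, Spats2l, Tspan5, Gdpd3 and 2310007B03Rik.

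The genes were sorted by known role after their values had been seen, and the groups carry no test of their own. Counts of calls in groups and lists below stand against the shares of all genes called. In Pkd1KO against noncystic these were 4.05% higher and 2.25% lower in males, and 2.02% and 1.32% in females. Against Pkd1KO+ciliaKO they were 1.99% and 1.78% in males, and 7.05% and 4.65% in females. In Pkd1KO+ciliaKO against noncystic they were 5.63% and 3.26% in males, and 0.67% and 1.87% in females. The cilium and polycystin group holds 2 genes. Glis2 (chr16:4594713-4624924, plus strand, GRCm38) encodes a zinc finger transcription factor of the Gli-similar family whose loss causes nephronophthisis. In males it ranged from 108 to 179 TPM in noncystic (median 122), from 244 to 335 TPM in Pkd1KO (median 292) and from 157 to 220.0 TPM in Pkd1KO+ciliaKO (median 181). In females it ranged from 109 to 207 TPM in noncystic (median 154), from 292 to 369 TPM in Pkd1KO (median 337) and from 144 to 218 TPM in Pkd1KO+ciliaKO (median 182). The lowest Pkd1KO mouse of either sex stood above the highest mouse of both other genotypes, while the Pkd1KO+ciliaKO males lay above the noncystic median and overlapped with the top of the noncystic range. The Pkd1KO mean was 2.27 times the noncystic and 1.60 times the Pkd1KO+ciliaKO mean in males and 2.14 times the noncystic and 1.85 times the Pkd1KO+ciliaKO mean in females (ratios given in times are of mean TPM with nothing added, and log2 ratios have 0.1 TPM added to both means). Without Pkd1KO, Glis2 was higher in Pkd1KO+ciliaKO than in noncystic males (log2 0.43, SE 0.07, edgeR adjusted p = 0.000587), and in females the difference did not pass (log2 0.08, SE 0.11, edgeR adjusted p = 0.724). That female fit includes the 2 libraries that went against their label for Kif3a. Noncystic female 5 was the highest noncystic female for Glis2 (207 TPM, next 172 TPM), and Pkd1KO+ciliaKO female 6 was at 171 TPM. The fit thus does not show that Pkd1KO+ciliaKO females were at the noncystic level.

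Pkd2 (chr5:104459450-104505819, plus strand) encodes polycystin-2, the channel partner of polycystin-1. It ranged from 68.7 to 93.3 TPM in noncystic (median 76.2), from 113 to 137 TPM in Pkd1KO (median 117) and from 79.2 to 111 TPM in Pkd1KO+ciliaKO (median 87.1) in males. Pkd2 in females ranged from 70.6 to 96.8 TPM in noncystic (median 94.1), from 139 to 168 TPM in Pkd1KO (median 154) and from 90.8 to 122 TPM in Pkd1KO+ciliaKO (median 110.4). Its Pkd1KO mice stood above both other groups in each sex, while those 2 groups overlapped with each other, and its ratios were smaller than those of Glis2, with the Pkd1KO mean 1.56 times the noncystic and 1.34 times the Pkd1KO+ciliaKO mean in males and 1.77 times the noncystic and 1.42 times the Pkd1KO+ciliaKO mean in females. Glis2 and Pkd2 were the only members among 48 genes of a list of polycystin, nephronophthisis and cilium genes. Of that list, 5 genes were called higher and 1 lower in Pkd1KO than in noncystic males, and 6 higher and 2 lower in females. Against Pkd1KO+ciliaKO 5 were higher and 1 lower in males, and 8 higher and 2 lower in females. In Pkd1KO+ciliaKO against noncystic males 3 were higher and 3, Kif3a among them, lower (median log2 0.02 against 0.01 over all genes), and in females none passed in edgeR, Kif3a included. The exons of Glis2 overlap those of Pam16 on the opposite strand over 10.4% of their length, and no strand setting of the counting is given in the sources used here. Pam16 missed the rule with a smallest log2 ratio of 0.10, as did Anks3, a gene of the same list farther along the chromosome, with 0.27. Of genes that lie between them, Coro7, Vasn, Dnaja3, Hmox2 and Nmral1 had log2 ratios over noncystic of -0.34 (Vasn) to 0.13 (Nmral1) in males.

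**Figure D2:**
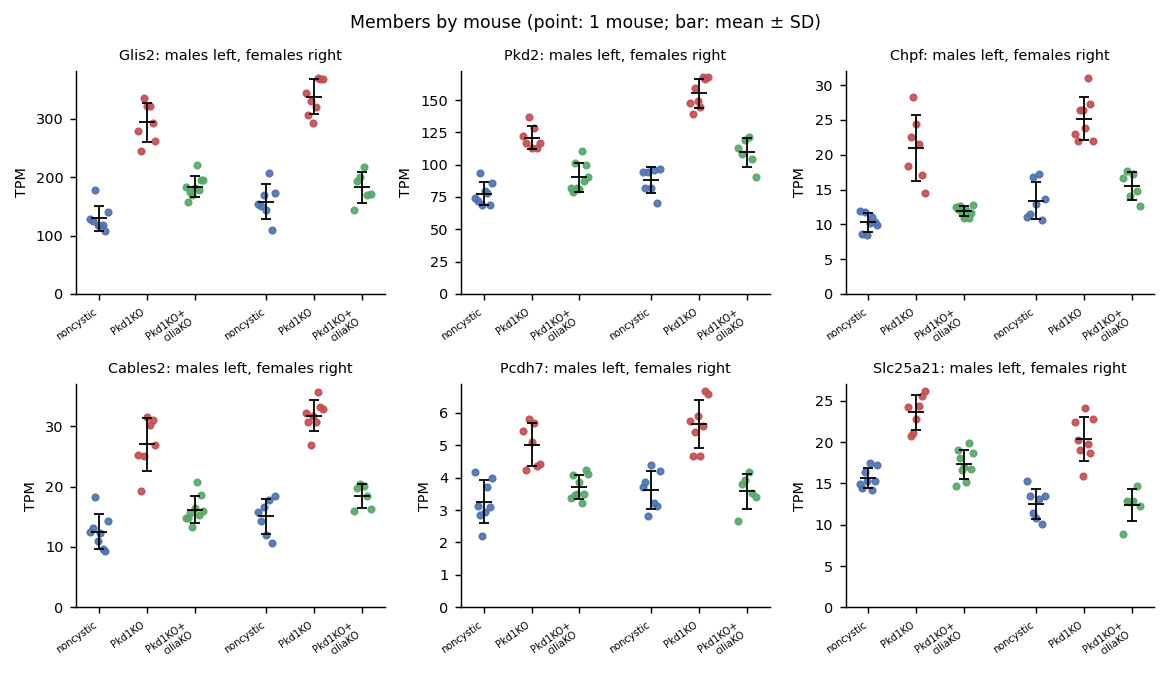
TPM of Glis2, Pkd2, Chpf, Cables2, Pcdh7 and Slc25a21 in each mouse (points) by genotype and sex, with the mean and SD as bars. The Pkd1KO points of Glis2, Pkd2, Chpf, Pcdh7 and Slc25a21 lie above all points of both other genotypes in both sexes, and those of Cables2 in females.

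The chondroitin sulfate group holds Chpf and Chst3. Chpf (chr1:75474569-75479307, minus strand) encodes chondroitin polymerizing factor, which lengthens the chondroitin chain together with chondroitin synthases. In males it ranged from 8.42 to 11.9 TPM in noncystic (median 10.3), from 14.6 to 28.3 TPM in Pkd1KO (median 21.6) and from 10.9 to 12.8 TPM in Pkd1KO+ciliaKO (median 12). In females it ranged from 10.6 to 17.2 TPM in noncystic (median 12.9), from 21.9 to 31 TPM in Pkd1KO (median 25.1) and from 12.6 to 17.6 TPM in Pkd1KO+ciliaKO (median 15.7). All Pkd1KO mice lay above the rest in both sexes, with the Pkd1KO mean 2.04 times the noncystic and 1.76 times the Pkd1KO+ciliaKO mean in males and 1.88 times the noncystic and 1.63 times the Pkd1KO+ciliaKO mean in females. The contrast of Pkd1KO+ciliaKO against noncystic did not pass in males (log2 0.13, SE 0.09, edgeR adjusted p = 0.376) or in females (log2 0.08, SE 0.13, edgeR adjusted p = 0.75). Chst3, the sulfotransferase that modifies chondroitin at the galactosamine, had medians of 4.41, 6.53 and 5.12 TPM in noncystic, Pkd1KO and Pkd1KO+ciliaKO males and of 5.11, 8.64 and 5.57 TPM in females. Its groups overlapped widely in both sexes. On a list of 22 chondroitin sulfate synthesis genes these were the only members. In males 1 of the 22 was called higher in Pkd1KO than in noncystic and 3 higher than in Pkd1KO+ciliaKO, and in females 1 was higher than in noncystic, with 5 higher and 1 lower than in Pkd1KO+ciliaKO. In Pkd1KO+ciliaKO against noncystic 1 was higher and 1 lower in males and 1 higher in females, with medians of -0.03 in both sexes.

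The promoter of Chpf is shown because it was 1 of only 2 member promoters with a full cyclic AMP response element (CRE, TGACGTCA, which reads the same on both strands). The reference windows (RefSeq, GRCm38.p6, minus strand, the element in capitals) are:
Chpf, chr1:75479540-75479567: cctctgctccTGACGTCActcagggtgc
Chpf, chr1:75479495-75479522: gggctgcttcTGACGTCAtccgggacgc
Promoters from 250 bases before to 50 bases after the start were matched for 90 of the 115 genes and for 12447 of the 15828. The element occurred in 2.22% of the member promoters (Chpf and Mcm5) and in 2.92% of all.

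Cables2 (chr2:180258540-180273496, minus strand) belongs to the family of cyclin-dependent kinase and Abl substrates that link these kinases. In males it ranged from 9.28 to 18.2 TPM in noncystic (median 12.4), from 19.2 to 31.5 TPM in Pkd1KO (median 26.8) and from 13.2 to 20.8 TPM in Pkd1KO+ciliaKO (median 15.6). In females it ranged from 10.7 to 18.5 TPM in noncystic (median 15.8), from 26.8 to 35.7 TPM in Pkd1KO (median 31.9) and from 15.9 to 20.3 TPM in Pkd1KO+ciliaKO (median 19.1). Pkd1KO females did not overlap with the others, and in males the lowest Pkd1KO mouse lay within the Pkd1KO+ciliaKO range. The Pkd1KO mean was 2.15 times the noncystic and 1.67 times the Pkd1KO+ciliaKO mean in males and 2.10 times the noncystic and 1.72 times the Pkd1KO+ciliaKO mean in females. Pkd1KO+ciliaKO against noncystic did not pass in males (log2 0.28, SE 0.09, edgeR adjusted p = 0.0517) or in females (log2 0.16, SE 0.11, edgeR adjusted p = 0.411). On a list of 15 measured Cables genes, G1 cyclins and their kinases it was the only member. In males 5 of the 15 were called higher and 1 lower in Pkd1KO than in noncystic, 1 higher than in Pkd1KO+ciliaKO, and 5 higher and 1 lower in Pkd1KO+ciliaKO than in noncystic (median log2 0.31). In females the counts were 1 higher, 1 higher and 0.

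The sequence directly upstream of Cables2 is shown because it repeats a CCAAT element at a fixed step. Over chr2:180273497-180273715 on the minus strand (GRCm38.p6, RefSeq), CCAAT, in capitals, occurred 5 times, each 49 bases from the next:
Cables2: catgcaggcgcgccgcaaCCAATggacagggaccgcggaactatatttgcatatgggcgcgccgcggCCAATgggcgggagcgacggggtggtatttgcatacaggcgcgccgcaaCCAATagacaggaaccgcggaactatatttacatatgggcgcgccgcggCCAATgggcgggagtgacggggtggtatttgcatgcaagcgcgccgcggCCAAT
At least 5 CCAAT or its reverse ATTGG in the 250 bases before the start were found in 47 of the 12447 promoters (0.378%), among them 3 members. At least 1 was found there in 44 of the 90 member promoters and in 35.9% of all.

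The mitosis and cell division group holds 12 genes, with Cables2, described above, among them. Cables2 had the largest Pkd1KO mean of the 12, 27.0 TPM in males and 31.7 TPM in females, and weighs on the sums below. The group had the largest median ratio over noncystic of any group in males, 1.78 on the log2 scale, against 0.70 in females. Its ratios over Pkd1KO+ciliaKO were smaller, with medians of 0.75 and 0.39. Ube2c, the ubiquitin-conjugating enzyme of the anaphase-promoting complex, ranged from 0.767 to 2.54 TPM in noncystic (median 1.81), from 3.07 to 18.4 TPM in Pkd1KO (median 5.74) and from 2.2 to 5.64 TPM in Pkd1KO+ciliaKO (median 4.46) in males. In females it ranged from 2.71 to 7.25 TPM in noncystic (median 4.67), from 4.11 to 12 TPM in Pkd1KO (median 8.3) and from 2.75 to 5.6 TPM in Pkd1KO+ciliaKO (median 3.83). The lowest Pkd1KO male was above every noncystic male, while the range of Pkd1KO+ciliaKO males overlapped with both. Ect2, an exchange factor for a small GTPase that starts cytokinesis, ranged from 4.91 to 13 TPM in noncystic (median 7.43), from 11.7 to 25.4 TPM in Pkd1KO (median 14.2) and from 6.83 to 10.3 TPM in Pkd1KO+ciliaKO (median 8.32) in males. Ect2 in females ranged from 8.86 to 12.7 TPM in noncystic (median 10.6), from 11.6 to 22.6 TPM in Pkd1KO (median 17.9) and from 3.6 to 10.2 TPM in Pkd1KO+ciliaKO (median 9.37). Its Pkd1KO+ciliaKO medians were near the noncystic medians in both sexes.

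Cdkn3, a phosphatase of cyclin-dependent kinases, had medians of 1.16, 4.89 and 3.1 TPM in noncystic, Pkd1KO and Pkd1KO+ciliaKO males and of 1.16, 2.25 and 1.43 TPM in females. Ccnb2, a cyclin of mitosis, ranged from 1.13 to 5.67 TPM in noncystic (median 3.2), from 7.04 to 33.9 TPM in Pkd1KO (median 10.3) and from 3.32 to 11.4 TPM in Pkd1KO+ciliaKO (median 7.87) in males. Ccnb2 in females ranged from 1.77 to 4.69 TPM in noncystic (median 3.39), from 2.77 to 7.6 TPM in Pkd1KO (median 5.77) and from 3.33 to 6.4 TPM in Pkd1KO+ciliaKO (median 3.91). The Ccnb2 level exceeded every mouse of the other genotypes in 3 of the 7 Pkd1KO males and in 3 of the 8 females. For both Cdkn3 and Ccnb2 every Pkd1KO male exceeded every noncystic male. The others were Ccna2 (cyclin A), Cdk1 (its kinase), Aurkb and Birc5 (kinase and survivin of the chromosomal passenger complex), Tpx2 and Psrc1 (spindle proteins) and Cenpm (a centromere protein). Their Pkd1KO means in males were 2.83 to 3.88 times noncystic and 1.59 to 1.79 times Pkd1KO+ciliaKO, and in females 1.42 to 1.66 and 1.24 to 1.33 times. The summed level of the 12 genes ran from 29.3 to 55.5 TPM in noncystic (median 39.1), from 70.9 to 221 TPM in Pkd1KO (median 103) and from 47.4 to 85 TPM in Pkd1KO+ciliaKO (median 65.3) in males. The mitosis sums of females ran from 43.5 to 59.6 TPM in noncystic (median 48.9), from 71.8 to 105 TPM in Pkd1KO (median 91.6) and from 38.8 to 72.4 TPM in Pkd1KO+ciliaKO (median 58.5). Pkd1KO male 4 was highest at 221 TPM, against 70.9 to 130 TPM in the other Pkd1KO males. Without it all 12 still met the rule, while 8 did without the 2 female libraries that went against their label for Kif3a, 9 with group medians and 9 without the 4 males that lay apart (noncystic 3, Pkd1KO 4, Pkd1KO+ciliaKO 6 and 8).

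Pkd1KO+ciliaKO males were not at the noncystic level for these genes. In edgeR, 10 of the 12, all but Ect2 and Cables2, were higher in Pkd1KO+ciliaKO than in noncystic males (5.63% of all genes were). Psrc1 (log2 1.02, SE 0.17, edgeR adjusted p = 0.00135) was among the members with the smallest p. In females none of the 12 passed, and the group's median was 0.11. Of a list of 30 G2/M genes (7 members), 30 were called higher in Pkd1KO than in noncystic males. On that list 28 were higher in Pkd1KO+ciliaKO than in noncystic males (median log2 1.01 against 0.01 over all genes), and none higher in Pkd1KO than in Pkd1KO+ciliaKO males. In females the counts were 5, 0 and 1. For all 12 members the mean of Pkd1KO+ciliaKO males lay above noncystic, and that it lay below Pkd1KO was fixed by the rule.

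The DNA replication and S phase group holds 10 genes. E2f1, a transcription factor that drives entry into S phase, ranged from 2.86 to 3.99 TPM in noncystic (median 3.57), from 5.1 to 18.4 TPM in Pkd1KO (median 7.02) and from 4.26 to 6.58 TPM in Pkd1KO+ciliaKO (median 5.71) in males. E2f1 in females ranged from 2.6 to 4.13 TPM in noncystic (median 3.44), from 2.47 to 13.5 TPM in Pkd1KO (median 5.06) and from 2.48 to 5.23 TPM in Pkd1KO+ciliaKO (median 3.77). Every mouse of the other genotypes lay below 5 of the 7 Pkd1KO males and 4 of the 8 Pkd1KO females for E2f1. Uhrf1, which carries DNA methylation through replication, had medians of 3.46, 7.93 and 5.5 TPM in noncystic, Pkd1KO and Pkd1KO+ciliaKO males and of 5.61, 7.72 and 6.06 TPM in females. The Pkd1KO males of E2f1 lay above all noncystic males, and those of Uhrf1 overlapped with them. Mcm3 and Mcm5 (replicative helicase), Gins1 (helicase cofactor), Pole (DNA polymerase epsilon), Timeless (fork protection), Tk1 (thymidine kinase), Hells and Cdca7 (chromatin remodelling) had male means 1.51 to 2.72 times noncystic and 1.32 to 1.6 times Pkd1KO+ciliaKO. In females these were 1.37 to 1.7 and 1.25 to 1.48 times. The summed level ran from 23.5 to 45.4 TPM in noncystic (median 29.9), from 44.5 to 146 TPM in Pkd1KO (median 54.8) and from 34.9 to 73.9 TPM in Pkd1KO+ciliaKO (median 44.4) in males. The S phase sums of females ran from 30.3 to 50.2 TPM in noncystic (median 34.3), from 39.8 to 95 TPM in Pkd1KO (median 50.7) and from 25.9 to 52.2 TPM in Pkd1KO+ciliaKO (median 41.1).

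This group hung most on 1 mouse. Pkd1KO male 4 summed to 146 TPM against 44.5 to 74.4 TPM in the other Pkd1KO males and 34.9 to 73.9 TPM in Pkd1KO+ciliaKO males, and without it only Tk1 met the rule. The 9 others that no longer did were Uhrf1, E2f1, Cdca7, Mcm5, Pole, Hells, Gins1, Mcm3 and Timeless. E2f1 (log2 0.57, SE 0.13, edgeR adjusted p = 0.0111) and Hells (log2 0.91, SE 0.14, edgeR adjusted p = 0.000783) were higher in Pkd1KO+ciliaKO than in noncystic males, and none of the 10 passed in females. Of 27 S phase genes on the list (8 members), 22 were called higher in Pkd1KO than in noncystic males, 6 higher than in Pkd1KO+ciliaKO males, and 6 higher in Pkd1KO+ciliaKO than in noncystic males (median 0.28). In females the counts were 3, 4 and 0.

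Promoter windows of the cell cycle members are shown because they hold 2 short elements known from cell cycle genes. The E2F element was searched as TTTCCCGC or TTTGGCGC and the cell cycle homology region (CHR) as TTTGAA, each on both strands. Reference windows (RefSeq, GRCm38.p6, each on the strand of its gene, the element in capitals) with an E2F element were:
Cdca7, chr2:72476138-72476165, plus: gcgtcccggcGCGGGAAAgccggtggcc
Mcm5, chr8:75109350-75109377, plus: aagaactttcGCGCCAAAacgtccagcc
Hells, chr19:38930918-38930945, plus: accaccgggtTTTCCCGCgaaagagaag
Cenpm, chr15:82244390-82244417, minus: cgaacgtggcTTTCCCGCgtttcgagga
and those with a CHR were:
Ube2c, chr2:164769890-164769915, plus: agggttgcaaTTCAAAcgcgggcggc
Ect2, chr3:27153977-27154002, minus: gtttaccggaTTTGAAacacactcac
Cdkn3, chr14:46760420-46760445, plus: ccgcgcgtctTTCAAAgacttcctct
Ccnb2, chr9:70421706-70421731, minus: gggactagaaTTTGAAaataagactg
Cdk1, chr10:69352968-69352993, minus: gattggctccTTTGAAcgtctacgtg
The E2F element was in 4 of 8 S phase promoters (Mcm3, Mcm5, Hells and Cdca7) and 1 of 9 mitosis promoters (Cenpm), in 5.56% of all member promoters and in 2.79% of all promoters. The CHR was in 5 of 9 mitosis and none of 8 S phase promoters, in 18 of 90 member promoters and in 12.6% of all. It was also in 4 of 9 histone, 2 of 5 interferon and chemokine and 2 of 8 enzyme promoters. Of antigen presentation promoters 1 of 8 held it, of transport promoters 1 of 5 and of injury promoters 0 of 11. The 5 mitosis and 4 histone promoters with a CHR all held a CCAAT as well, a pair found in 13.3% of members and in 5.17% of all. The matches in Mcm3 lie after the start and are not printed. These are matches of letters, and no binding was measured.

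The 9 replication-dependent histone genes make transcripts that lack poly(A) and peak in S phase, and the libraries were made by ribosomal RNA depletion, which keeps such transcripts. Hist1h3g ranged from 1.73 to 6.78 TPM in noncystic (median 3.54), from 4.89 to 28.2 TPM in Pkd1KO (median 10.5) and from 3.3 to 7.17 TPM in Pkd1KO+ciliaKO (median 5.7) in males. Hist1h3g in females ranged from 2.23 to 7.17 TPM in noncystic (median 4.49), from 3.87 to 11.4 TPM in Pkd1KO (median 7.64) and from 2.76 to 7.72 TPM in Pkd1KO+ciliaKO (median 4.38). For Hist1h3g, 5 of 7 Pkd1KO males and 4 of 8 Pkd1KO females lay above every mouse of the other genotypes. Hist1h3c had medians of 11.7, 36.8 and 19.7 TPM in noncystic, Pkd1KO and Pkd1KO+ciliaKO males and of 14.1, 24.1 and 14.8 TPM in females. The Pkd1KO ranges of both reached above and overlapped with those of the other genotypes. Hist1h4m differed from the rest in Pkd1KO+ciliaKO: it ranged from 8.19 to 29.2 TPM in noncystic (median 18.6), from 14.3 to 69.9 TPM in Pkd1KO (median 21.8) and from 0.194 to 24.7 TPM in Pkd1KO+ciliaKO (median 0.531) in males, with 7 of 9 Pkd1KO+ciliaKO males under 1 TPM and below every noncystic male. Hist1h4m in females ranged from 14.1 to 45.7 TPM in noncystic (median 30.7), from 28 to 58.9 TPM in Pkd1KO (median 44) and from 0.449 to 34 TPM in Pkd1KO+ciliaKO (median 18). The other 6 (Hist1h1a, Hist1h1b, Hist1h2ab, Hist1h2ah, Hist1h2bm and Hist1h3b) had male means 2.39 to 4.39 times noncystic and 1.84 to 2.09 times Pkd1KO+ciliaKO, and female means 1.3 to 1.53 and 1.3 to 1.64 times. All 9 lie in 2 histone clusters, 4 at chr13:21722044-22035568 and 5 at chr13:23535422-23764406, and near-identical copies can share reads, so single histone values are uncertain.

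In males the 9 chosen histone genes summed to 56.4 to 143 TPM in noncystic (median 88.4) and to 126 to 646 TPM in Pkd1KO (median 213). In Pkd1KO+ciliaKO males they summed to 73.3 to 154 TPM (median 129). The histone sums of females ran from 104 to 174 TPM in noncystic (median 129), from 132 to 259 TPM in Pkd1KO (median 209) and from 95.3 to 158 TPM in Pkd1KO+ciliaKO (median 138). Pkd1KO male 4 reached 646 TPM against 126 to 221 TPM in the other Pkd1KO males, and without it Hist1h4m and Hist1h1b no longer met the rule. Hist1h3c (log2 0.53, SE 0.16, edgeR adjusted p = 0.0403), Hist1h1b (log2 0.95, SE 0.23, edgeR adjusted p = 0.0128) and Hist1h1a (log2 0.55, SE 0.14, edgeR adjusted p = 0.0176) were higher in Pkd1KO+ciliaKO than in noncystic males. Of 37 histone genes on the list (8 members), 26 were called higher in Pkd1KO than in noncystic males, 8 higher than in Pkd1KO+ciliaKO males, and 19 higher with 1 lower in Pkd1KO+ciliaKO than in noncystic males (median 0.54). In females the counts were 1, 2 and 0. All 37 listed genes together summed to medians of 3058, 3141 and 3234 TPM in noncystic, Pkd1KO and Pkd1KO+ciliaKO males. In females these medians were 3780, 3856 and 4078 TPM. The whole list was thus highest in Pkd1KO+ciliaKO at the median in each sex, unlike the chosen genes.

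**Figure D3:**
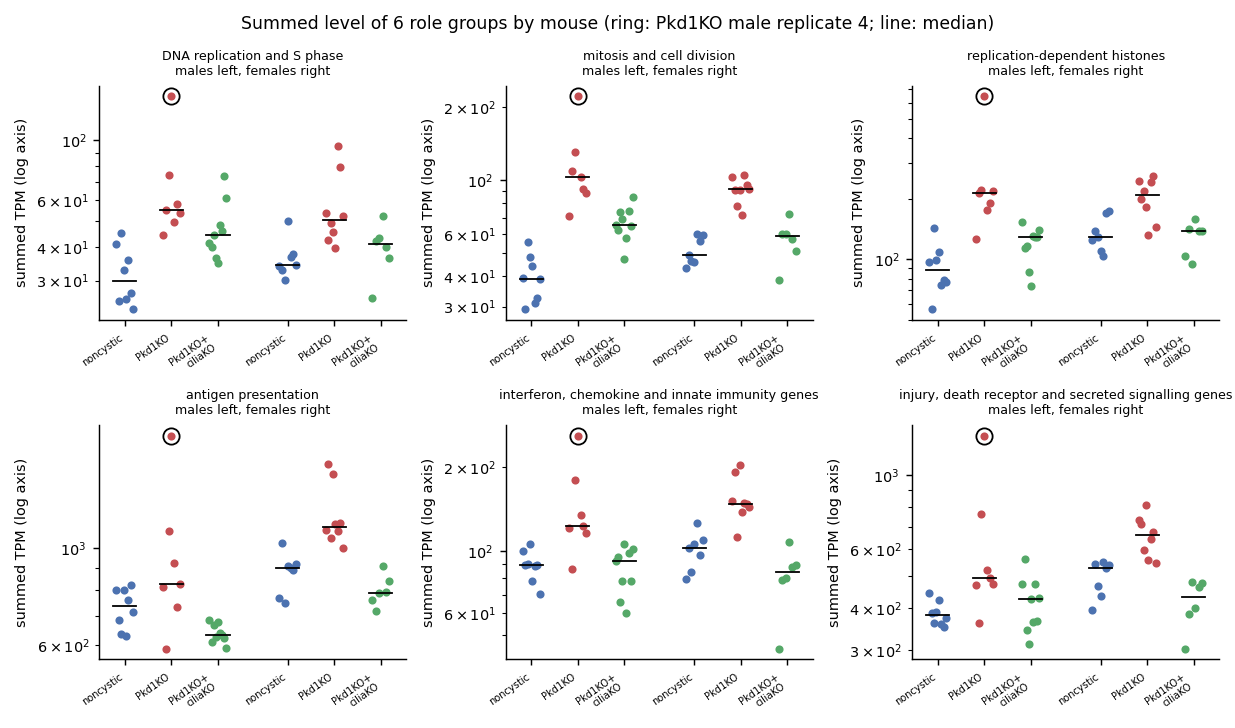
Summed TPM per mouse (log axis) of 6 role groups by genotype and sex, with a line at each median and a ring around Pkd1KO male 4. The ringed mouse is the highest of all males in the mitosis (221 TPM), S phase (146 TPM), histone (646 TPM), antigen presentation (1802.5 TPM) and injury (1308 TPM) groups. The mitosis sums include Cables2.

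The antigen presentation group holds 8 genes, 6 class I chains or relatives (H2-K1, H2-D1, H2-Q6, H2-Q7, H2-T22 and H2-M3), their light chain B2m and H2-DMb2, which serves peptide loading of class II. B2m ranged from 376 to 488 TPM in noncystic (median 408), from 280.4 to 1072 TPM in Pkd1KO (median 468) and from 308 to 392 TPM in Pkd1KO+ciliaKO (median 363) in males. B2m in females ranged from 447 to 655 TPM in noncystic (median 524), from 577 to 978 TPM in Pkd1KO (median 719.8) and from 416 to 543 TPM in Pkd1KO+ciliaKO (median 485). The B2m level exceeded every mouse of the other genotypes in 2 of the 7 Pkd1KO males and in 5 of the 8 females. H2-T22 ranged from 57.1 to 111 TPM in noncystic (median 78.5), from 55.5 to 172 TPM in Pkd1KO (median 110.4) and from 36.5 to 80.9 TPM in Pkd1KO+ciliaKO (median 71.9) in males. H2-T22 in females ranged from 64.1 to 91.1 TPM in noncystic (median 74.4), from 64.1 to 135 TPM in Pkd1KO (median 103) and from 37.3 to 65.8 TPM in Pkd1KO+ciliaKO (median 56.1). Every mouse of the other genotypes lay below 3 of the 7 Pkd1KO males and 5 of the 8 Pkd1KO females for H2-T22. Male ranges of B2m and H2-T22 overlapped between all genotypes, and in females the lowest Pkd1KO value of B2m lay above every Pkd1KO+ciliaKO mouse. H2-Q7 had medians of 1.69, 2.68 and 1.89 TPM in noncystic, Pkd1KO and Pkd1KO+ciliaKO males and of 2.65, 3.52 and 2.07 TPM in females. H2-Q7 and H2-Q6 are close copies that may share reads. The other 5 had male means 1.38 to 2.83 times noncystic and 1.37 to 2.17 times Pkd1KO+ciliaKO, and female means 1.24 to 1.5 and 1.25 to 1.62 times.

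The median fitted log2 difference of Pkd1KO+ciliaKO against noncystic over the 8 genes was -0.12 in males and -0.29 in females. B2m was lower in Pkd1KO+ciliaKO than in noncystic males (log2 -0.35, SE 0.09, edgeR adjusted p = 0.0208) and H2-T22 lower in females (log2 -0.62, SE 0.11, edgeR adjusted p = 0.0209), and none of the 8 was called higher in either sex. The summed level ran from 628 to 824 TPM in noncystic (median 736), from 589 to 1802 TPM in Pkd1KO (median 827) and from 591 to 686 TPM in Pkd1KO+ciliaKO (median 634) in males. The antigen presentation sums of females ran from 748 to 1026 TPM in noncystic (median 899), from 998 to 1552 TPM in Pkd1KO (median 1115) and from 718 to 909 TPM in Pkd1KO+ciliaKO (median 790.5). Pkd1KO male 4 reached 1802.5 TPM against 589 to 1092 TPM in the other Pkd1KO males. Without it H2-K1, H2-M3, B2m and H2-D1 no longer met the rule. Of 22 genes of the major histocompatibility complex and antigen processing (6 members), 2 were called higher in Pkd1KO than in noncystic males and 6 higher than in Pkd1KO+ciliaKO males. In Pkd1KO+ciliaKO against noncystic 2 were lower in males and 1 in females (medians 0.14 and -0.15). In females 2 were higher than in noncystic and 6 higher than in Pkd1KO+ciliaKO.

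Promoters of class I genes are shown because 4 of the 8 genes held an NF-kB element (GGGNNTTCC, both strands) and all 8 a CCAAT or ATTGG. The latter was in 51.1% of member promoters and in 38.2% of all. It was also in 8 of 9 mitosis, 8 of 9 histone and 4 of 5 transport promoters. Of S phase promoters 3 of 8 held it, of interferon and chemokine promoters 1 of 5, of injury promoters 3 of 11 and of enzyme promoters 3 of 8. Only 1 window per gene is printed, and H2-Q7, H2-Q6 and H2-D1 each held an ATTGG farther upstream as well. The windows around the CCAAT (RefSeq, GRCm38.p6, on the strand of the gene, the element in capitals) were:
H2-Q7, chr17:35439129-35439153, plus: ttacccggaaCCAATcagcgtcggc
H2-Q6, chr17:35424785-35424809, plus: tcaccgggaaCCAATcagcgtcggc
H2-D1, chr17:35263031-35263055, plus: attccaggagCCAATcagcgtcgcc
H2-K1, chr17:34000349-34000373, minus: tcttacccccATTGGgtggcgcgat
The NF-kB element was in H2-Q7, H2-Q6, H2-K1 and H2-D1, in 13.3% of member promoters and in 7.09% of all. Of the 8 genes, 7 are within 15 Mb of Pkd1 on chr17 and none is within 5 Mb. That wider window held 442 measured genes, and no other member lay in it.

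The interferon, chemokine and innate immunity group holds 8 genes. Ccl5, a chemokine that draws T cells, ranged from 1.53 to 2.6 TPM in noncystic (median 2.11), from 3.21 to 21.5 TPM in Pkd1KO (median 4.45) and from 1.16 to 3.4 TPM in Pkd1KO+ciliaKO (median 2.69) in males. Ccl5 in females ranged from 4.996 to 11.4 TPM in noncystic (median 7.09), from 7.82 to 21.2 TPM in Pkd1KO (median 16.2) and from 1.996 to 5.16 TPM in Pkd1KO+ciliaKO (median 3.89). For Ccl5, 5 of 7 Pkd1KO males and 7 of 8 Pkd1KO females lay above every mouse of the other genotypes. The lowest Pkd1KO female was above every Pkd1KO+ciliaKO female, and the lowest Pkd1KO male above every noncystic male. Gbp2, a guanylate-binding GTPase induced by interferon, ranged from 5.47 to 17.2 TPM in noncystic (median 11), from 11.7 to 61 TPM in Pkd1KO (median 21.2) and from 11.6 to 20.4 TPM in Pkd1KO+ciliaKO (median 16.5) in males. Gbp2 in females ranged from 8.38 to 30.2 TPM in noncystic (median 14.8), from 21.7 to 51.5 TPM in Pkd1KO (median 27.6) and from 8.84 to 31.4 TPM in Pkd1KO+ciliaKO (median 18.7). The Gbp2 level exceeded every mouse of the other genotypes in 4 of the 7 Pkd1KO males and in 3 of the 8 females. Tgtp1 (an interferon-induced GTPase), Ifi44l (an interferon-induced protein), Cxcl10 (a chemokine), Irf5 (an interferon regulatory factor), Csf1r (the receptor of macrophage colony-stimulating factor) and Cfi (complement factor I) had male means 1.27 to 4.27 times noncystic and 1.39 to 14.6 times Pkd1KO+ciliaKO. In females these were 1.24 to 3.29 and 1.43 to 4.45 times. The male Pkd1KO mean of Ifi44l rested on few mice, since its range of 0.269 to 23.2 TPM had a median of 0.486 TPM.

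Without Pkd1KO, Csf1r was lower in Pkd1KO+ciliaKO than in noncystic males (log2 -0.42, SE 0.12, edgeR adjusted p = 0.042) and Ccl5 lower in females (log2 -1.16, SE 0.22, edgeR adjusted p = 0.0226). Pkd1KO male 4 summed to 260 TPM over the 8 genes, against 86.5 to 179 TPM in the other Pkd1KO males, and without it Cxcl10, Irf5 and Csf1r no longer met the rule. Csf1r itself was at 66.8 TPM in that mouse, against 35.2 to 58.2 TPM in the other Pkd1KO males. The 10 macrophage markers summed to medians of 68.3 TPM in noncystic, 93.1 TPM in Pkd1KO and 77.3 TPM in Pkd1KO+ciliaKO males. In females the medians were 77.0 TPM in noncystic, 87.7 TPM in Pkd1KO and 81.2 TPM in Pkd1KO+ciliaKO, and the part of such cells in these results was not tested. Of 22 interferon-stimulated genes only Gbp2 was a member. In males 3 were called higher in Pkd1KO than in noncystic, 2 higher than in Pkd1KO+ciliaKO and 9 higher in Pkd1KO+ciliaKO than in noncystic (median 0.47). In females none was higher than in noncystic, 1 was higher and 1 lower than in Pkd1KO+ciliaKO, and 1 was higher in Pkd1KO+ciliaKO than in noncystic.

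The group of injury, death receptor and secreted signalling genes is the largest, with 14. Stc2, the secreted glycoprotein stanniocalcin-2, ranged from 0.765 to 2.73 TPM in noncystic (median 1.26), from 2.34 to 10.2 TPM in Pkd1KO (median 3.01) and from 1.6 to 3.01 TPM in Pkd1KO+ciliaKO (median 2.1) in males. Stc2 in females ranged from 2.13 to 4.13 TPM in noncystic (median 2.56), from 4.03 to 9.37 TPM in Pkd1KO (median 7.27) and from 2.57 to 7.42 TPM in Pkd1KO+ciliaKO (median 3.41). Every mouse of the other genotypes lay below 3 of the 7 Pkd1KO males and 4 of the 8 Pkd1KO females for Stc2. Pdpn, the membrane mucin podoplanin, ranged from 2.67 to 4.31 TPM in noncystic (median 3.54), from 5.02 to 23.1 TPM in Pkd1KO (median 7.15) and from 4.43 to 9.02 TPM in Pkd1KO+ciliaKO (median 6.12) in males. Pdpn in females ranged from 5.9 to 8.23 TPM in noncystic (median 7.36), from 10.5 to 21.3 TPM in Pkd1KO (median 14.7) and from 6.58 to 10.1 TPM in Pkd1KO+ciliaKO (median 7.82). Pkd1KO females did not overlap with the others for Pdpn, and in males both mutant groups lay above noncystic. Sema3c, a secreted semaphorin, ranged from 15.4 to 23.9 TPM in noncystic (median 19), from 23.9 to 44.8 TPM in Pkd1KO (median 28.7) and from 19.4 to 26.1 TPM in Pkd1KO+ciliaKO (median 20.4) in males. Sema3c in females ranged from 11.3 to 16.9 TPM in noncystic (median 14.1), from 22.5 to 27.2 TPM in Pkd1KO (median 24.6) and from 14.4 to 21.7 TPM in Pkd1KO+ciliaKO (median 17.1). For Sema3c, 4 of 7 Pkd1KO males and 8 of 8 Pkd1KO females lay above every mouse of the other genotypes. Krt20, a keratin of injured tubules, ranged from 1.17 to 6.2 TPM in noncystic (median 3.34), from 2.21 to 29.3 TPM in Pkd1KO (median 4.97) and from 1.7 to 18.1 TPM in Pkd1KO+ciliaKO (median 2.35) in males. Krt20 in females ranged from 3.17 to 8.27 TPM in noncystic (median 5.43), from 5.06 to 13.4 TPM in Pkd1KO (median 8.32) and from 1.28 to 10.1 TPM in Pkd1KO+ciliaKO (median 3.49). The Krt20 level exceeded every mouse of the other genotypes in 2 of the 7 Pkd1KO males and in 3 of the 8 females. Pkd1KO females stood apart for Sema3c. Krt20 overlapped in both sexes, with Pkd1KO males 3 and 4 at 29.3 and 18.3 TPM and Pkd1KO+ciliaKO male 8 at 18.1 TPM, against at most 9.32 TPM in the other males. Wnt9a, a Wnt ligand, had medians of 2.36, 3.38 and 2.73 TPM in noncystic, Pkd1KO and Pkd1KO+ciliaKO males and of 3.09, 5.15 and 3.14 TPM in females.

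Eda2r and Tnfrsf10b are receptors of the tumour necrosis factor family and known p53 targets. Eda2r ranged from 0.536 to 1.28 TPM in noncystic (median 0.775), from 1.05 to 5.81 TPM in Pkd1KO (median 2.15) and from 1.46 to 2.76 TPM in Pkd1KO+ciliaKO (median 2.12) in males. Eda2r in females ranged from 1.28 to 2.8 TPM in noncystic (median 1.63), from 2.14 to 5.01 TPM in Pkd1KO (median 3.05) and from 1.91 to 3.96 TPM in Pkd1KO+ciliaKO (median 2.42). Every mouse of the other genotypes lay below 3 of the 7 Pkd1KO males and 2 of the 8 Pkd1KO females for Eda2r. Its Pkd1KO+ciliaKO males all lay above the noncystic males (log2 1.34, SE 0.17, edgeR adjusted p = 7.73e-05), the smallest p of any member in that contrast. Tnfrsf10b (log2 0.44, SE 0.13, edgeR adjusted p = 0.0404), Pdpn (log2 0.81, SE 0.13, edgeR adjusted p = 0.000936), Lif (log2 1.08, SE 0.19, edgeR adjusted p = 0.00147), Crip1 (log2 0.37, SE 0.11, edgeR adjusted p = 0.0366) and Tmsb10 (log2 0.55, SE 0.15, edgeR adjusted p = 0.0235) were also higher in Pkd1KO+ciliaKO than in noncystic males. In females Lgals1 was lower (log2 -0.63, SE 0.12, edgeR adjusted p = 0.0257) and none was higher. Timp1 (an inhibitor of matrix proteases), Anxa3 (annexin), Crip1 (a LIM protein), Tmsb10 (thymosin beta), Lif (a cytokine), Cldn1 (a tight junction claudin) and Lgals1 (galectin) had male means 1.3 to 5.97 times noncystic and female means 1.28 to 1.5 times.

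The summed level of the 14 ran from 353 to 445 TPM in noncystic (median 382), from 363 to 1308 TPM in Pkd1KO (median 491) and from 312 to 559.7 TPM in Pkd1KO+ciliaKO (median 427) in males. The injury sums of females ran from 394 to 549 TPM in noncystic (median 528), from 548 to 814 TPM in Pkd1KO (median 660.4) and from 303 to 479.7 TPM in Pkd1KO+ciliaKO (median 431). Pkd1KO male 4 reached 1308 TPM against 363 to 764 TPM in the other Pkd1KO males. Without it Lif, Timp1, Lgals1, Crip1, Tnfrsf10b, Eda2r and Tmsb10 no longer met the rule, and the Pkd1KO to Pkd1KO+ciliaKO ratio of Crip1 was at a log2 of -0.02. With group medians in place of means that ratio was -0.03 for Timp1 and -0.03 for Tmsb10. Of 30 tubule injury and dedifferentiation genes (6 members), 12 were called higher in Pkd1KO than in noncystic males, 2 higher than in Pkd1KO+ciliaKO males, and 9 higher in Pkd1KO+ciliaKO than in noncystic males (median 0.40). In females the counts were 4, 6 and 0. Of 27 Wnt ligands and regulators Wnt9a was the only member. In males 4 were called higher and 1 lower in Pkd1KO than in noncystic, 1 higher than in Pkd1KO+ciliaKO, and 2 higher and 1 lower in Pkd1KO+ciliaKO than in noncystic. In females 2 were higher than in noncystic, 2 higher and 2 lower than in Pkd1KO+ciliaKO, and none in Pkd1KO+ciliaKO against noncystic.

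The enzyme group holds 10 genes, sorted under retinaldehyde, steroid, prostaglandin and amine metabolism. Ptgds, the synthase of prostaglandin D, ranged from 8.2 to 27.1 TPM in noncystic (median 11.3), from 29.5 to 57.6 TPM in Pkd1KO (median 33.9) and from 14.8 to 44.1 TPM in Pkd1KO+ciliaKO (median 21.4) in males. Ptgds in females ranged from 12.6 to 27.7 TPM in noncystic (median 19.7), from 34 to 84.3 TPM in Pkd1KO (median 52.8) and from 22.9 to 32.7 TPM in Pkd1KO+ciliaKO (median 29.5). Pkd1KO females did not overlap with the others, and every Pkd1KO male lay above every noncystic male. Hsd17b11, a hydroxysteroid dehydrogenase of lipid droplets, ranged from 109 to 368 TPM in noncystic (median 271), from 326 to 729.7 TPM in Pkd1KO (median 611) and from 77.4 to 333 TPM in Pkd1KO+ciliaKO (median 258) in males. Hsd17b11 in females ranged from 55.6 to 71.7 TPM in noncystic (median 67.8), from 99.5 to 130.3 TPM in Pkd1KO (median 113) and from 67.4 to 98.9 TPM in Pkd1KO+ciliaKO (median 83.5). For Hsd17b11, 5 of 7 Pkd1KO males and 8 of 8 Pkd1KO females lay above every mouse of the other genotypes. Odc1, the rate-limiting enzyme of polyamine synthesis, ranged from 638 to 2490.2 TPM in noncystic (median 1629), from 1196 to 3400.0 TPM in Pkd1KO (median 2445) and from 469.9 to 2513 TPM in Pkd1KO+ciliaKO (median 1330.3) in males. Odc1 in females ranged from 309 to 506 TPM in noncystic (median 478), from 531 to 956 TPM in Pkd1KO (median 758) and from 330.0 to 579 TPM in Pkd1KO+ciliaKO (median 484). The Odc1 level exceeded every mouse of the other genotypes in 3 of the 7 Pkd1KO males and in 6 of the 8 females. Odc1 overlapped between all genotypes in males, and in females 1 or more Pkd1KO mice overlapped with Pkd1KO+ciliaKO. Aldh1a1, which oxidizes retinaldehyde, ranged from 2.98 to 20.6 TPM in noncystic (median 4.999), from 4.81 to 27.6 TPM in Pkd1KO (median 7.85) and from 6.88 to 14.5 TPM in Pkd1KO+ciliaKO (median 9.38) in males. Aldh1a1 in females ranged from 5.2 to 12.3 TPM in noncystic (median 10.04), from 13.2 to 30.3 TPM in Pkd1KO (median 21.2) and from 8.27 to 12.2 TPM in Pkd1KO+ciliaKO (median 9.04). Its Pkd1KO females stood apart from both other groups, and its Pkd1KO males did not.

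Akr1d1, a steroid reductase of bile acid synthesis, had medians of 52.7, 92.4 and 51.1 TPM in noncystic, Pkd1KO and Pkd1KO+ciliaKO males and of 48.2, 82.8 and 39.9 TPM in females. Hpgd, which degrades prostaglandins, had medians of 13.5, 20.8 and 14.1 TPM in noncystic, Pkd1KO and Pkd1KO+ciliaKO males and of 50.8, 64.6 and 27.2 TPM in females. Aldh1a2, which also oxidizes retinaldehyde, had a mean 2.78 times noncystic in males and 1.31 times in females. Aldh1a7 had a mean 1.51 times noncystic in males and 2.11 times in females. Aldh1a1 and Aldh1a7 lie together at chr19:20492715-20727562 and are close copies that may share reads. Ptgds (log2 0.75, SE 0.20, edgeR adjusted p = 0.021) and Aldh1a2 (log2 0.84, SE 0.24, edgeR adjusted p = 0.0355) were higher in Pkd1KO+ciliaKO than in noncystic males, and none of the 10 passed in females. Without Pkd1KO male 4, Hpgd, Aldh1a2 and Aldh1a1 no longer met the rule. The summed level, most of it Odc1, ran from 1029.7 to 3111 TPM in noncystic (median 2132), from 1931 to 4452 TPM in Pkd1KO (median 3493) and from 807 to 3127 TPM in Pkd1KO+ciliaKO (median 1902) in males. The enzyme sums of females ran from 687 to 923 TPM in noncystic (median 854), from 1069 to 1592 TPM in Pkd1KO (median 1397) and from 649 to 975 TPM in Pkd1KO+ciliaKO (median 847).

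Of the 7 membrane transport genes, 1 had a larger ratio over noncystic in males. Slc25a21, the mitochondrial carrier of oxodicarboxylates, ranged from 14.2 to 17.5 TPM in noncystic (median 15.3), from 20.8 to 26.2 TPM in Pkd1KO (median 24.3) and from 14.7 to 19.9 TPM in Pkd1KO+ciliaKO (median 17) in males. Slc25a21 in females ranged from 10.05 to 15.3 TPM in noncystic (median 13.2), from 15.9 to 24.2 TPM in Pkd1KO (median 20.03) and from 8.87 to 14.8 TPM in Pkd1KO+ciliaKO (median 12.8). It was 1 of the 5 genes for which every Pkd1KO mouse lay above all others in both sexes. Slc6a18, a brush border transporter of neutral amino acids known from the late proximal tubule, ranged from 145 to 236 TPM in noncystic (median 194), from 179 to 348 TPM in Pkd1KO (median 249.9) and from 130.3 to 226 TPM in Pkd1KO+ciliaKO (median 168) in males. Slc6a18 in females ranged from 238 to 408 TPM in noncystic (median 317), from 284 to 648 TPM in Pkd1KO (median 448) and from 190.4 to 308 TPM in Pkd1KO+ciliaKO (median 248). Every mouse of the other genotypes lay below 6 of the 7 Pkd1KO males and 5 of the 8 Pkd1KO females for Slc6a18. Slc10a2, the apical bile acid transporter, had medians of 19.4, 32.9 and 26.1 TPM in noncystic, Pkd1KO and Pkd1KO+ciliaKO males and of 29.3, 54.2 and 31.8 TPM in females. Both genes overlapped between genotypes in both sexes. Slc51a (a subunit of the basolateral organic solute transporter), Slc38a4 and Slc6a15 (amino acid transporters) and Slc33a1 (the acetyl-CoA carrier of the endoplasmic reticulum) had means 1.25 to 1.5 times noncystic and 1.29 to 1.51 times Pkd1KO+ciliaKO in males. In females these were 1.27 to 2.14 and 1.33 to 1.59 times. Slc6a18 was lower in Pkd1KO+ciliaKO than in noncystic females (log2 -0.53, SE 0.13, edgeR adjusted p = 0.0411), and none of the 7 passed in males.

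The summed level of the 7 ran from 289 to 397 TPM in noncystic (median 352), from 326 to 579 TPM in Pkd1KO (median 472) and from 229 to 426 TPM in Pkd1KO+ciliaKO (median 345) in males. The transporter sums of females ran from 366 to 557 TPM in noncystic (median 448), from 436 to 871 TPM in Pkd1KO (median 636) and from 261 to 435 TPM in Pkd1KO+ciliaKO (median 375). Proximal tubule markers were measured in the same libraries. The 14 markers summed from 44113 to 100624 TPM in noncystic (median 84915), from 61143 to 127697 TPM in Pkd1KO (median 97546) and from 21458 to 94786 TPM in Pkd1KO+ciliaKO (median 76445) in males. The marker sums of females ran from 29706 to 68962 TPM in noncystic (median 50640.1), from 30849 to 69992 TPM in Pkd1KO (median 52745) and from 17144 to 40847 TPM in Pkd1KO+ciliaKO (median 26991). In edgeR, 4 of the 14 were lower in Pkd1KO+ciliaKO than in noncystic males and 3 in females, with none higher. Their part in the transport and enzyme results was not tested.

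No member was among the markers of a tubule segment. The 7 thick ascending limb markers had median sums of 3209, 2204 and 3471 TPM in noncystic, Pkd1KO and Pkd1KO+ciliaKO males and of 3980, 3958 and 5118 TPM in females. The medians of 6 distal convoluted tubule markers were 736, 545 and 773 TPM in males and 1153, 847 and 1114 TPM in females. Those of 8 principal cell markers were 880.4, 989 and 1223 TPM in males and 1312, 1604 and 1910.3 TPM in females, and those of 7 intercalated cell markers were 344, 302 and 397 TPM and 507, 453 and 689 TPM. Against noncystic, Pkd1KO had 2 of the proximal markers lower in each sex, 2 (males) and 1 (females) of the thick ascending limb markers lower, 2 of the distal convoluted tubule markers lower in females, and no principal or intercalated marker called. Against Pkd1KO+ciliaKO, Pkd1KO had 1 proximal marker higher and 1 lower in males and 2 higher and 1 lower in females, 2 thick ascending limb markers lower in each sex, 1 distal convoluted tubule marker lower in each sex, and 2 (males) and 1 (females) intercalated markers lower. In Pkd1KO+ciliaKO against noncystic, 1 thick ascending limb marker was lower in males and 1 higher in females, and 1 distal convoluted tubule, 1 principal cell and 1 intercalated marker were higher in males.

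Markers of cells outside the tubule were also counted, with the sums of Pkd1KO male 4 given above. Of 10 macrophage markers, 4 were called higher in Pkd1KO than in noncystic males, 1 higher than in Pkd1KO+ciliaKO in each sex, and 2 higher and 1 (Csf1r) lower in Pkd1KO+ciliaKO than in noncystic males. Of 7 podocyte markers 2 were higher in each mutant than in noncystic males, and of 8 endothelial and 8 fibroblast and pericyte markers none was called. Of 6 T cell markers 1 was higher in Pkd1KO than in each other group of males, of 3 B cell markers 1 was higher in Pkd1KO+ciliaKO than in noncystic males, and of mast cell markers 1 was higher in Pkd1KO and 2 in Pkd1KO+ciliaKO than in noncystic males, with 1 higher in Pkd1KO than in each other group of females. Other lists without any member gave few calls in females. Of 25 actin cytoskeleton and YAP target genes, 5 were higher in Pkd1KO than in noncystic males, 2 higher than in Pkd1KO+ciliaKO and 8 higher in Pkd1KO+ciliaKO than in noncystic, with 3, 2 (and 1 lower) and 0 in females. Of 26 basement membrane and matrix genes, 2 were lower in Pkd1KO than in each other group of males, and 2 higher and 4 lower in Pkd1KO+ciliaKO than in noncystic, with 2 lower, 3 lower (1 higher) and 0 in females. Of 10 inositol and osmolyte genes, 1 was higher and 1 lower in Pkd1KO than in noncystic males, 1 higher and 2 lower than in Pkd1KO+ciliaKO and 3 higher and 1 lower in Pkd1KO+ciliaKO than in noncystic. In females these counts were 1 higher and 1 lower, 1 higher and 3 lower, and 0.

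Of the 33 genes without an assigned role, 2 in males and 4 in females had every Pkd1KO mouse above all others, against 6 and 14 of all 115. The rule used these values. Pcdh7, a protocadherin, ranged from 2.19 to 4.17 TPM in noncystic (median 3.11), from 4.24 to 5.82 TPM in Pkd1KO (median 5.1) and from 3.22 to 4.24 TPM in Pkd1KO+ciliaKO (median 3.51) in males. Pcdh7 in females ranged from 2.81 to 4.38 TPM in noncystic (median 3.7), from 4.67 to 6.67 TPM in Pkd1KO (median 5.66) and from 2.65 to 4.16 TPM in Pkd1KO+ciliaKO (median 3.67). No Pkd1KO mouse of either sex overlapped with the others, at levels of only a few TPM. Kcne1l, an accessory subunit of potassium channels, ranged from 0.787 to 1.85 TPM in noncystic (median 1.32), from 2.01 to 4.31 TPM in Pkd1KO (median 3.31) and from 1.96 to 2.99 TPM in Pkd1KO+ciliaKO (median 2.21) in males. Kcne1l in females ranged from 1.67 to 4.53 TPM in noncystic (median 2.23), from 4.94 to 13.8 TPM in Pkd1KO (median 8.33) and from 1.56 to 4.54 TPM in Pkd1KO+ciliaKO (median 3.35). Pkd1KO females stood apart from both other groups, and in males both mutant groups lay above noncystic (log2 0.75, SE 0.16, edgeR adjusted p = 0.00596 for Pkd1KO+ciliaKO). Tspan5, a tetraspanin, had medians of 18, 28.3 and 19.9 TPM in noncystic, Pkd1KO and Pkd1KO+ciliaKO males and of 13.8, 22.6 and 15.3 TPM in females. Tor2a, a torsin of the endoplasmic reticulum, had medians of 24.2, 35.2 and 28.1 TPM in noncystic, Pkd1KO and Pkd1KO+ciliaKO males and of 26.4, 35 and 28.1 TPM in females. Pkd1KO stood apart from both other groups for Tspan5 in females and for Tor2a in males.

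For a few genes the Pkd1KO+ciliaKO level was very low. Rhox6, a homeobox gene of the X-linked reproductive cluster, ranged from 0.142 to 2.32 TPM in noncystic (median 1.6), from 0.291 to 4.92 TPM in Pkd1KO (median 3.33) and from 0 to 0.225 TPM in Pkd1KO+ciliaKO (median 0.115) in males. Rhox6 in females ranged from 1.01 to 3.79 TPM in noncystic (median 1.75), from 1.2 to 9.63 TPM in Pkd1KO (median 4.15) and from 0 to 0.917 TPM in Pkd1KO+ciliaKO (median 0.292). For Rhox6, 4 of 7 Pkd1KO males and 4 of 8 Pkd1KO females lay above every mouse of the other genotypes. It was lower in Pkd1KO+ciliaKO than in noncystic males (log2 -3.94, SE 0.55, edgeR adjusted p = 0.000205) and females (log2 -2.38, SE 0.58, edgeR adjusted p = 0.0454). Ceacam2, an adhesion molecule of the immunoglobulin superfamily, ranged from 1.49 to 11.3 TPM in noncystic (median 5.73), from 2.85 to 13 TPM in Pkd1KO (median 7.41) and from 0.693 to 2.7 TPM in Pkd1KO+ciliaKO (median 1.55) in males. Ceacam2 in females ranged from 48.4 to 99.5 TPM in noncystic (median 68.9), from 50.3 to 127 TPM in Pkd1KO (median 87.9) and from 4.23 to 54.3 TPM in Pkd1KO+ciliaKO (median 32.7). The Ceacam2 level exceeded every mouse of the other genotypes in 2 of the 7 Pkd1KO males and in 3 of the 8 females. It was lower in Pkd1KO+ciliaKO males (log2 -1.99, SE 0.35, edgeR adjusted p = 0.0015), and the Pkd1KO and noncystic ranges overlapped in both sexes. The uncharacterized gene 2900011O08Rik ranged from 0.548 to 2.6 TPM in noncystic (median 0.876), from 0.577 to 6.7 TPM in Pkd1KO (median 3.04) and from 0.317 to 1.06 TPM in Pkd1KO+ciliaKO (median 0.597) in males. 2900011O08Rik in females ranged from 0.476 to 2.53 TPM in noncystic (median 1.21), from 1.13 to 7.11 TPM in Pkd1KO (median 3.98) and from 0.176 to 1.37 TPM in Pkd1KO+ciliaKO (median 0.426). Every mouse of the other genotypes lay below 4 of the 7 Pkd1KO males and 5 of the 8 Pkd1KO females for 2900011O08Rik. Zpld1, with a zona pellucida domain, was lower in Pkd1KO+ciliaKO than in noncystic females (log2 -1.33, SE 0.29, edgeR adjusted p = 0.0346), and Gdpd3, a phosphodiesterase, was lower in males (log2 -0.54, SE 0.16, edgeR adjusted p = 0.0386) and in females (log2 -0.83, SE 0.17, edgeR adjusted p = 0.0257). Mybpc2 (log2 0.77, SE 0.16, edgeR adjusted p = 0.006), Igf2bp1 (log2 0.59, SE 0.18, edgeR adjusted p = 0.0467) and Stx11 (log2 0.44, SE 0.13, edgeR adjusted p = 0.043) were higher in Pkd1KO+ciliaKO than in noncystic males. Without Pkd1KO male 4, Akap12, Kcne1l, Igf2bp1, Stx11, Plac8 and Adamtsl4 no longer met the rule.

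Taking all 115 genes in Pkd1KO+ciliaKO against noncystic, which is not a contrast of the rule although the rule used the means of both groups against Pkd1KO, 33 passed in males (28.7%, against 8.89% of all 15991 genes). Of these 28 were higher in Pkd1KO+ciliaKO (5.63% of all genes were) and 5, Rhox6, Ceacam2, B2m, Gdpd3 and Csf1r, were lower (3.26% of all). The median member was at log2 0.21, against 0.01 over all genes, and 86 members had a Pkd1KO+ciliaKO mean above noncystic. In females 7 passed in edgeR (2.54% of all genes did). At an unadjusted edgeR p under 0.05 were 28 members, against 3413 of all 15968 genes. In DESeq2 16 members passed, all lower (8.69% of all genes passed). None of the 7 was higher (0.67% of all) and all were lower (1.87% of all): H2-T22, Ccl5, Lgals1, Gdpd3, Zpld1, Slc6a18 and Rhox6. The female median was -0.12. Removing the 2 female libraries that went against their label for Kif3a gave 10, all lower, while leaving out Pkd1KO+ciliaKO female 2, 3 or 4 alone gave 0. In males those 28 genes were thus above noncystic in both mutants. The median member had 22.9% of the noncystic-to-Pkd1KO difference in the Pkd1KO+ciliaKO mean in males and 0.905% in females.

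**Figure D4:**
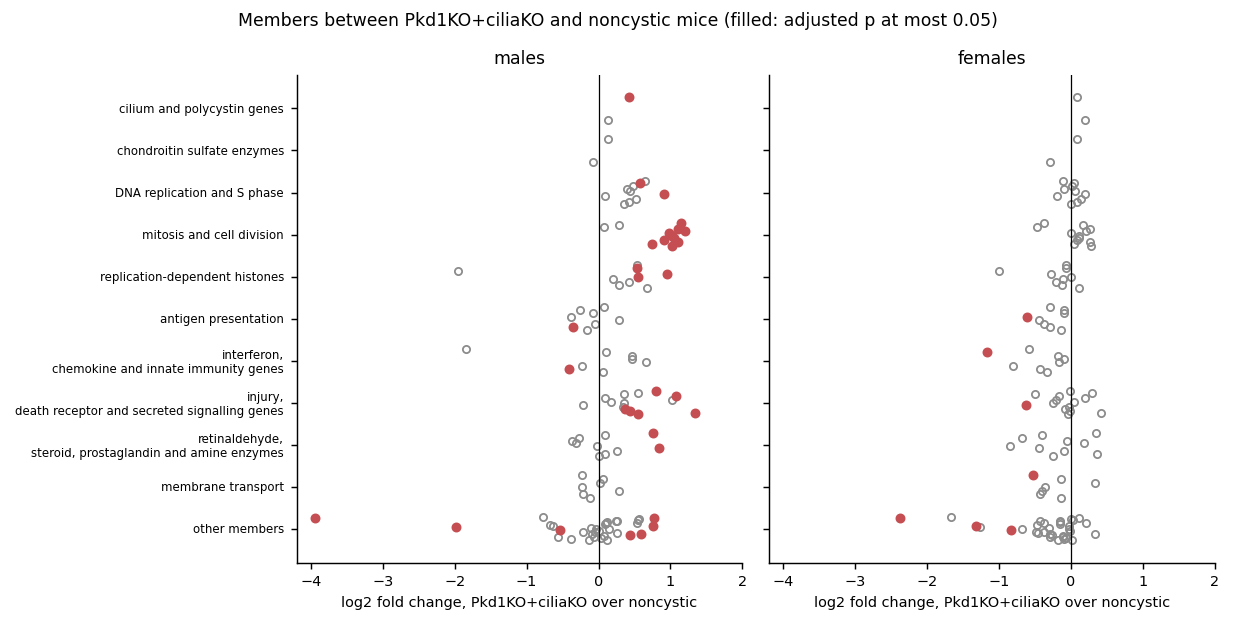
Fitted log2 difference of Pkd1KO+ciliaKO against noncystic for each of the 115 genes by role group, 1 panel per sex, filled where the edgeR adjusted p was at most 0.05. In males 28 genes are filled above 0 and 5 below, with 10 of the 12 mitosis genes above, and in females 7 are filled, all below 0.

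The difference between the sexes in this contrast passed for no member in edgeR (0.0316% of all genes passed). In DESeq2 it passed for 5 members (0.36% of all genes passed). At an unadjusted edgeR p under 0.05 were 37 members, against 965 of all 15828 genes. The fitted female difference was below the male one for 99 of 115 members. The median gap of the members was -0.40 on the log2 scale, against -0.009 over all genes. A call in males with no call in females is thus not shown to differ between them.

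Many members differed between noncystic females and males, a contrast without any mutant. TPM were scaled within each sex, so this test used the counts of both tables. In edgeR 48 passed (41.7%, against 27.5% of all genes), 30 higher in females (12.2% of all) and 18 lower (15.3% of all). Higher in females were Ceacam2 (log2 3.42, SE 0.31, edgeR adjusted p = 4.26e-07), 2310007B03Rik (log2 1.11, SE 0.10, edgeR adjusted p = 5.15e-07), Hpgd (log2 1.58, SE 0.15, edgeR adjusted p = 9.66e-07), Ccl5 (log2 1.70, SE 0.19, edgeR adjusted p = 5.2e-06) and Aldh1a2 (log2 2.06, SE 0.24, edgeR adjusted p = 8.33e-06) by the smallest p. Lower in females were Tmigd1 (log2 -2.16, SE 0.14, edgeR adjusted p = 1.54e-08), C1qtnf3 (log2 -2.66, SE 0.23, edgeR adjusted p = 2.48e-07), Hsd17b11 (log2 -2.15, SE 0.22, edgeR adjusted p = 2.12e-06), Odc1 (log2 -2.06, SE 0.24, edgeR adjusted p = 6.13e-06) and Arhgef39 (log2 -1.51, SE 0.20, edgeR adjusted p = 3.27e-05). Of the injury group 9 were higher in females and 1 lower. Of the transport group Slc6a18 and Slc10a2 were higher and 4 lower. The largest of these differences were of the size of the ratios between genotypes or above, so that Pkd1KO females were below noncystic males for Odc1 at the median (758 and 1629 TPM, each scaled within its sex).

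**Figure D5:**
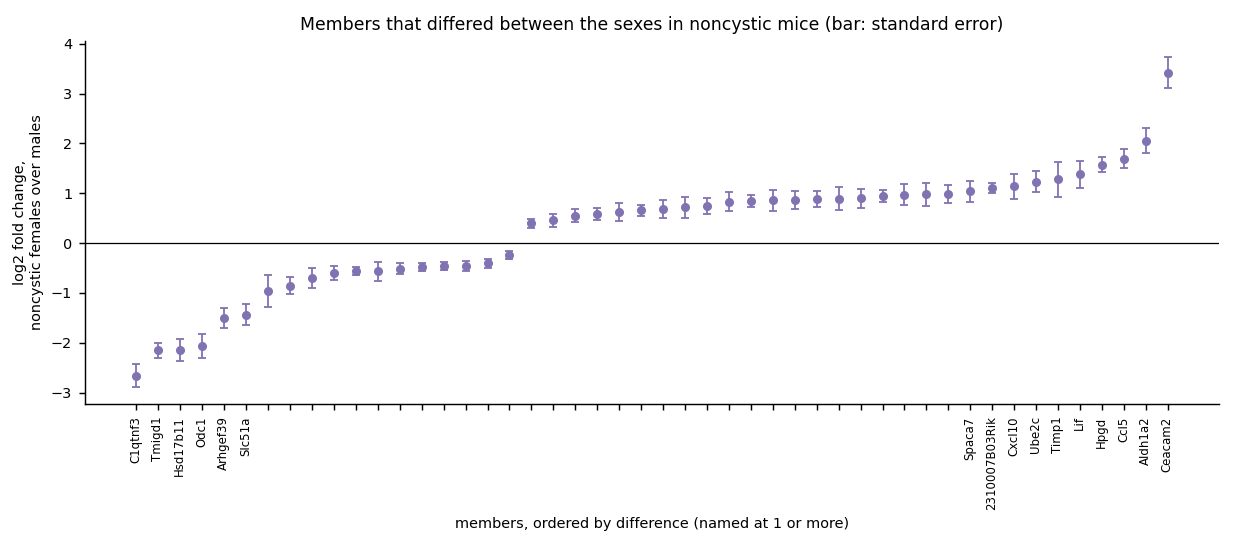
Log2 difference of noncystic females over noncystic males, with its SE, on the y axis for the 48 of 115 genes that passed in edgeR, ordered along the x axis and named where the difference was 1 or more in size. The 30 genes above 0 were higher in females, up to Ceacam2 at 3.42, and the 18 below 0 lower, down to C1qtnf3 at -2.66.

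By position, the members were spread over the genome with a few neighbours. Chromosome 13 held 12 of them, 1.95% of its 614 measured genes, 9 being the histone genes. Beside the histone, H2 and Aldh1a pairs already given, Tk1 and Birc5 lie at chr11:117815526-117855743, Hsd17b11 and Pkd2 at chr5:103989762-104505819, H2-K1 and H2-DMb2 at chr17:33996017-34151555, and Ccnb2 and Aldh1a2 at chr9:70407692-71296243. Within 5 Mb of Kif3a, the other floxed locus, only Tgtp1 of 114 measured genes was a member. Exons of 29 members overlap those of another gene, 17 over more than 10% of their length, and without a known strand setting their counts cannot be told apart from those of an overlapping neighbour. In the promoters, AP-1 (TGANTCA) occurred in 11.1% of members and 5.56% of all, TEAD (CATTCCA) in 5.56% and 3.08%, the E-box (CACGTG) in 7.78% and 9.42%, and GLI (TGGGTGGTC), the element of the Gli family to which Glis2 is related, in none of 90 and in 0.185% of all.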

How the data were processed

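TRAP RNASeq libraries, made with ribosomal RNA depletion and paired reads, were analysed from the kidneys of 45 mice, grouped by the genotype and sex in the labels. The authors used fastp 0.20.0 for trimming, STAR 2.7.9 for alignment (mouse build GRCm38.p6) and featureCounts 2.0.0 for reads per gene, according to the submitters' notes. The deposited count tables of each sex hold those raw counts for 55401 gene IDs, of which 55141 had a symbol. The deposited TPM tables hold the protein-coding part of the genes that reached 6 counts in 20% or more of one sex's mice, scaled by the authors over all genes past that filter, as recomputing them from the counts showed. Strand and multiread settings are not given in the sources used here. All columns matched a labelled sample (0 unmatched).

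Genes were chosen from mean TPM as the report states. Counts were tested with edgeR 4.0.16 (TMM, quasi-likelihood, R 4.3.3) within the groups compared, with Benjamini-Hochberg adjustment over all genes tested and a threshold of 0.05, for Pkd1KO+ciliaKO against noncystic in each sex, noncystic females against males, and the interaction of sex and genotype. The test script was tested on simulated data. Alternatives were DESeq2 1.42.0, its size factors, other filters, pseudocounts and limits, medians, a replicate block, and leaving out mice. The members, gene lists and alternatives were chosen with earlier results of these data known, and the counts for Pkd1KO without single libraries were added after the values were seen. Named by rule were Pkd1, Kif3a, Glis2, Pkd2, Cables2 and Chpf, the 15 genes with the largest smallest-of-4 ratio, the 3 nearest the limit on either side, up to 5 genes a direction by p in each test, and members on the gene lists. Other names were chosen after their values were seen, and single values of 2 members are not reported here. Promoter sequences came from RefSeq. Python 3.11.15 with pandas 2.3.3 and numpy 2.4.6 was used. Libraries held 80874556 to 132958186 counts, and each mouse is 1 replicate.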

Additional observations from a re-analysis of the deposited data

Results flagged for a closer look

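In 27 of 228 groups of values (38 named genes in 6 groups, 11.8%), 1 mouse stood far from the other mice of its group in TPM. For independent normal values chance gives about 1 in 20 groups, whereas these groups share mice and most of the genes were chosen by their ratios. Noncystic male 3 accounted for 7 of these and Pkd1KO male 4 for 5.

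Pkd1KO male 4 was the highest of its group for Ifi44l (23.2 TPM, the next mouse at 6.22 TPM), Ube2c (18.4, next 7.87), Hells (4.71, next 2.64), B2m (1072, next 597) and Lgals1 (589.8, next 387). Noncystic male 3 was the highest for 2900011O08Rik (2.6 TPM, next 1.21), Ptgds (27.1, next 16.5), Glis2 (179, next 140.0), Gdpd3 (14.7, next 11.3), Aldh1a2 (7.6, next 4.41) and Pkd1 (17.1, next 11.1), and the lowest for Tmigd1 (361 TPM, next 518). Other noncystic males were the highest for Ifi44l (replicate 4 at 7.04 TPM, next 0.614) and Zpld1 (replicate 5 at 15.8 TPM, next 6.71).

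Noncystic female 5 was the highest of its group for Eda2r (2.8 TPM, next 1.9) and Psrc1 (5.21 TPM, next 3.01) and the lowest for Kif3a (6.21 TPM, next 20.8). Pkd1KO+ciliaKO female 6 was the highest for Kif3a (20.1 TPM, next 9.02) and 2900011O08Rik (1.37 TPM, next 0.471). Pkd1KO+ciliaKO female 1 was the lowest for Ect2 (3.6 TPM, next 8.86) and Hells (0.802 TPM, next 1.54). The remaining Pkd1KO+ciliaKO values were Stc2 in female 2 (7.42 TPM, next 3.78), Eda2r in female 3 (3.96, next 2.48), Tgtp1 in female 4 (9.67, next 4.23), Ifi44l in male 7 (0.716, next 0.400) and Krt20 in male 8 (18.1, next 9.32). Pkd1KO female 4 was the highest for Aldh1a2 (50.2 TPM, next 22.1).

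Outside the deposited TPM tables, the non-coding gene D630011A20Rik met the same limits with a smallest log2 ratio of 0.87. It overlaps Spaca7 on the opposite strand, so its reads cannot be told apart from those of Spaca7 without a known strand setting. Its mean level in males was 1.43 TPM in noncystic, 5.69 TPM in Pkd1KO and 2.85 TPM in Pkd1KO+ciliaKO, and in females 3.33, 6.2 and 3.06 TPM.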

How the results depend on the processing

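Membership moved with the limits: 228 genes met the rule with no minimum level, 33 with a minimum log2 ratio of 0.5, and 72 (60 of them among the 115) with group medians, against 90 with a pseudocount of 1 TPM and 168 with TMM-normalised CPM. Leaving out 1 mouse gave 87 (without Pkd1KO male 4) to 140 (without Pkd1KO male 2) genes. With medians, the smallest ratio changed sign for Adamtsl4 (log2 -0.0193), Timp1 (-0.0309) and Tmsb10 (-0.0304). Leaving out 1 mouse gave -0.0198 (without Pkd1KO male 4) to 0.415 for Crip1. For the tests, the count in Pkd1KO+ciliaKO against noncystic males was 33, and 23 to 43 without 1 mouse. In females it was 7, with 16 in DESeq2 and 0 to 9 without 1 mouse: it was 0 without Pkd1KO+ciliaKO female 2, 3 or 4, 2 without noncystic female 2, 6 or 7, and 3 without noncystic female 3. The count between noncystic females and males was 48, and 46 to 58 without 1 mouse. For the sex difference of the genotype contrast it was 0, with 5 in DESeq2, 2 without the 4 males that lay nearest the females on the first principal component (noncystic 3, Pkd1KO 4, Pkd1KO+ciliaKO 6 and 8), and 0 to 2 without 1 mouse, 2 being reached without noncystic male 3 or Pkd1KO+ciliaKO male 5 or 8. The cause of these changes was not tested. Other scalings and filters kept each count within 1.5 times. The replicate numbers did not pair the mice: deviations of same-numbered mice correlated at -0.22 to 0.163 (8 male pairs), -0.1 to 0.171 (6 female pairs) and -0.121 to 0.0328 (7 pairs of noncystic females and males). With the replicate block the counts were 18 (17 of them among the 33), 5, 44 and 0 in the order of the tests above. Among single genes named by rule, the tests kept their side of the threshold in 342 fits that left out 1 mouse and lost it in 43, and kept it in 155 other fits and lost it in 4, with no change of sign. Depth was 80874556 counts or more per library, while each group held 6 to 9 mice, and low genes rest on few TPM.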

Other observations

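Among 6270 genes outside the deposited TPM tables that passed the same filter in both sexes, 1120 had a Pkd1KO mean of at least 2 TPM and 19 met the limits used for the 115 genes. Of these, 12 were pseudogenes, 2 lincRNA and 1 antisense. Pseudogenes may share reads with their parent genes.

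Of 40 genes called higher in Pkd1KO against both other genotypes in both sexes, 23 were not among the 115, since at least 1 mean ratio or the level lay under the limits. They include Actb (cytoplasmic actin), Impa1 (inositol monophosphatase), Pam16 (which overlaps Glis2) and Anks3, Arpin (an inhibitor of the Arp2/3 complex), Agap3, Plxdc2, Npy2r, Sgcd and Ablim1, which were chosen after their values were seen.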
